A study of Mus musculus with 2 samples.

Results

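In the mouse, 5 proteins of the mitochondrial energy chain are each encoded by a widely used gene and by a paralog known from the testis, and the transcripts of these 10 genes were followed through spermatogenesis. The somatic and germ cell paralogs were Cycs and Cyct for cytochrome c, Cox6b1 and Cox6b2, Cox7b and Cox7b2, and Cox8a and Cox8c for nuclear subunits of cytochrome c oxidase, and Slc25a4 and Slc25a31 for the ADP/ATP carrier of the inner membrane. They were found by their symbols, with no measured value in the rule, and are 10 of the 50686 genes in the count matrix. The study profiled single cells from the whole testis of 2 wild-type mice of the strain C57Bl/6J Crl at 8 weeks of age, in 1 Chromium 3' v2 droplet library per mouse. The mice are described as littermates. Neither mouse was treated or carried an engineered allele, so the comparisons are between cell classes of the same animals, and the 2 mice are the replicates. Filtration of the suspension was meant to lower the number of somatic cells.

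Cytochrome c carries electrons from complex III to complex IV, cytochrome c oxidase, which passes them to oxygen and pumps protons across the inner mitochondrial membrane. The catalytic core of complex IV is encoded by the mitochondrial genome, and the nuclear subunits, among them COX6B, COX7B and COX8, surround it. ADP/ATP carriers exchange the ATP made in the matrix for cytosolic ADP, and released cytochrome c also takes part in apoptosis by binding Apaf1. During spermatogenesis, spermatogonia enter meiosis as spermatocytes, pachytene spermatocytes divide to give round spermatids, and these elongate and condense while protamines replace histones. Several housekeeping genes have paralogs that are transcribed from meiosis onwards. The sex chromosomes are silenced in pachytene spermatocytes, and Cox7b is the X-linked gene among the 10.

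The matrix held 1237 cells of mouse 1 with 27450497 UMIs (unique molecular identifiers, which count captured molecules) and 1315 cells of mouse 2 with 30302332 UMIs, with 0 barcodes in common. Levels are given as CPM, the UMIs of a gene in a class per 1000000 UMIs of that class. A UMI marks the 3' end of a transcript once, so that levels can be set side by side between genes without division by length. Cells were clustered without the 10 genes and the listed pathway genes, and clusters were named from marker genes. This gave 6 spermatogonium-like, 164 early spermatocyte-like, 526 pachytene or later spermatocyte-like, 448 round spermatid-like and 707 elongating or condensing spermatid-like cells. There were also 7 Sertoli-like cells, 6 of mouse 1 and 1 of mouse 2, and 5 Leydig-like cells, 1 of mouse 1 and 4 of mouse 2. Levels by mouse in the Sertoli-like and Leydig-like classes thus rest on 1 cell in 1 of the mice. The spermatogonium-like cells were 2 of mouse 1 and 4 of mouse 2. A cluster of 689 cells, led by Ssxb genes and holding 2 of 12 round spermatid markers past the threshold, was left unnamed. It lies between the pachytene and the round class. Class names are shortened from here on to the early, pachytene, round and late classes, where pachytene stands for pachytene or later and late for elongating or condensing.

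All 10 genes are annotated as protein coding in GRCm38. Cycs lies at chr6:50562563-50566538 (minus strand) and Cyct at chr2:76353942-76360450 (minus strand). Cox6b1 and Cox6b2 both lie on chromosome 7, at chr7:30616861-30626151 and chr7:4751792-4753094 (minus strand). Cox7b lies at chrX:106015700-106022450 (plus strand) and Cox7b2 at chr5:71442824-71548205 (minus strand). Cox8a lies at chr19:7215153-7217616 (minus strand) and Cox8c at chr12:102899316-102900526 (plus strand). Slc25a4 lies at chr8:46206797-46211284 (minus strand) and Slc25a31 at chr3:40708855-40726096 (plus strand). Reads were counted near the 3' end, and in a BLAST search of the last 500 bases of each transcript, 0 of the 10 genes had a match to another annotated transcript at 95% identity or more over at least 98 bases, the read length. The closest paralogs were Cyct and Cycs, alike at 78.1% over 311 aligned bases, and Cox6b2 and Cox6b1, at 77.3% over 88 bases. Copies outside the annotation were not searched.

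The stretches upstream of cytochrome c and ADP/ATP carrier genes are shown because the paralog shares of these pairs moved the most between cell classes. RefSeq windows of 250 bases before the transcription start (GRCm38.p6) were available for 9 of the 10 genes, all but Cox8c. The start is that of RefSeq, which can differ from the gene spans given above. Most of the Slc25a4 window lies within the span of its gene, and the ends of the Slc25a31 and Cox6b1 windows reach into theirs. Both strands were searched for the cAMP response element TGACGTCA, its half-site TGACG, the NRF1 half-site TGCGCA and the MYB core AACNGT, of which TGACG overlaps with TGACGTCA. Capitals mark the matches in the following windows, which lie at chr6:50566570-50566819 (minus strand, Cycs), chr2:76360454-76360703 (minus strand, Cyct), chr8:46211063-46211312 (minus strand, Slc25a4) and chr3:40708621-40708870 (plus strand, Slc25a31).
Cycs: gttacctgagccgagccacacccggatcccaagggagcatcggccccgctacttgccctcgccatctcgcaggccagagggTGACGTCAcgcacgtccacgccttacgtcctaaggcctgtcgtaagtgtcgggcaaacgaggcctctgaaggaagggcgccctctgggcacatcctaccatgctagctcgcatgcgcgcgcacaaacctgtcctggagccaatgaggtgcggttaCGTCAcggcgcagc
Cyct: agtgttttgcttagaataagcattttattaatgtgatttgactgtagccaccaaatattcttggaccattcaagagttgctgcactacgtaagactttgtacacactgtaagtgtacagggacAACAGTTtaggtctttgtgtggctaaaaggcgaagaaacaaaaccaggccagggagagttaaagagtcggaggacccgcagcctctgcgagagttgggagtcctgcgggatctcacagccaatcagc
Slc25a4: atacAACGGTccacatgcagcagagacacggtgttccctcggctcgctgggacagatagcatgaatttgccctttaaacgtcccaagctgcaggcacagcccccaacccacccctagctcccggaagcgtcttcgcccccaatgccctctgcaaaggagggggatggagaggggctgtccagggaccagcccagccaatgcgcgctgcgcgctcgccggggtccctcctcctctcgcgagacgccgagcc
Slc25a31: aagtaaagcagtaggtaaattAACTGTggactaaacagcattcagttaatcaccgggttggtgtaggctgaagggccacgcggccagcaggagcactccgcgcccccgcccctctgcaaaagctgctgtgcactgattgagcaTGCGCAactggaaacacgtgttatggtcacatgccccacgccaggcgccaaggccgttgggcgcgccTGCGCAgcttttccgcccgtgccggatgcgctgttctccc
Cycs held the full cAMP response element, whose first base lies 169 bases before the start, and a further half-site 14 bases before it. Cyct held no cAMP response element, and its MYB core was read on both strands at overlapping positions, 127 and 126 bases before the start. Slc25a31 held the NRF1 half-site at 107 and 40 bases before the start and a MYB core at 229. Slc25a4 held a MYB core at 246 bases. Of all 27025 promoter windows of this length, 1.62% held the full element, 17.9% its half-site, 6.66% the NRF1 half-site and 22.2% the MYB core. Among the other windows, those of Cox6b1, Cox7b2 and Cox8a held 1 half-site each, and those of Cox6b2 and Cox7b had no match. GC content was 64.0% for Cycs with 23 CpG dinucleotides and 45.6% for Cyct with 6, against medians of 52% and 6 over all windows. The carriers differed less, with 64.8% GC for Slc25a4 and 59.6% for Slc25a31, and 18 CpG in each. These matches describe the letters of the windows and are not mapped binding sites.

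Cyct, the testis cytochrome c, was most abundant in early cells and lower in each later class. Its level there was 517 CPM in mouse 1 and 500.1 CPM in mouse 2. Pachytene cells held 244 and 241 CPM, and round cells 111 and 104 CPM. In late cells 25.8 and 22.9 CPM were left. In each of these steps the mice did not overlap between classes. Cycs, the somatic cytochrome c, was found at 37.6 and 21.5 CPM in early cells and at 3.55 and 4.02 CPM in pachytene cells. It stood higher again in the unnamed cluster (15.8 and 17.2 CPM) and in round cells (15.2 and 13.4 CPM), and lower in the late class (4.77 and 6.73 CPM). By CPM, both mice thus had their lowest Cycs level in pachytene cells. Per cell the late class was lower, with means over mice of 0.0958 ± 0.0323 against 0.129 ± 0.0116 UMIs in pachytene cells (SD, n = 2). Cells of other types held far more of it, with 937 and 491 CPM in Sertoli-like and 327 and 250.3 CPM in spermatogonium-like cells.

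Cox6b2 was the second most abundant of the 10 transcripts over all cells. Early cells had 1876 CPM in mouse 1 and 1757 CPM in mouse 2, and pachytene cells 1279 and 1163 CPM. The unnamed cluster had 1267 and 1071 CPM and round cells 1081 and 891 CPM. The mice overlapped between neighbours among these 3 classes, and not between the pachytene and the round class. The late class stood far lower, at 312 and 309 CPM. Cox6b1, the ubiquitous subunit, which like Cox6b2 sits on the intermembrane face of the complex, was detected at 71.5 and 68.5 CPM in early cells. Later classes held less of it, with 29.5 and 28.04 CPM in pachytene cells, 36.8 and 36.2 CPM in round and 17.5 and 14.98 CPM in late cells. In Leydig-like cells Cox6b1 reached 1001 and 1228 CPM, and in spermatogonium-like cells 514 and 659.8 CPM.

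Cox7b2 was held at a nearly level amount from early to unnamed cells. Its levels were 889.6 and 705 CPM in early, 791 and 678 CPM in pachytene and 758 and 642 CPM in unnamed cells, and the mice overlapped between these classes. Round cells had 525 and 452 CPM and late cells 94.5 and 75.3 CPM, both below every earlier class. Cox7b was close to absent from spermatocytes. In early cells it had 0 UMIs in mouse 1 and 1 in mouse 2. The 526 pachytene cells together gave 9 and 2 UMIs, or 0.863 and 0.268 CPM. Round cells had 14 and 12 UMIs, or 3.26 and 1.98 CPM, above both mice's pachytene values. These values rest on few molecules, and Cox7b was seen at 140.1 and 68.3 CPM in the 6 spermatogonium-like cells on 3 UMIs per mouse.

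Cox8c was the most abundant of the 10 transcripts in every spermatocyte class and held the 14th highest level of all genes in early cells of both mice. It stood at 2980.2 CPM in mouse 1 and 3139 CPM in mouse 2. Pachytene cells had 2812 and 2703 CPM, where its rank was 18 in both mice. The level was 1961 and 1765 CPM in the unnamed cluster, 1039 and 936 CPM in round and 308 and 291 CPM in late cells. By then its rank was 625 and 693, and the mice did not overlap between any of these classes. Cox8a, the ubiquitous paralog of this small transmembrane subunit, was measured at 26.6 and 16.1 CPM in early cells. It stayed between 14.8 and 21.6 CPM in pachytene, unnamed and round cells, of which the latter 2 overlapped, and was 6.53 and 8.08 CPM in late cells. Leydig-like cells had 1101 and 1056 CPM and Sertoli-like cells 358 and 655 CPM.

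Slc25a31, the germ cell ADP/ATP carrier, was the least abundant of the 5 germ cell paralogs. It was measured at 168 CPM in mouse 1 and 120.2 CPM in mouse 2 in early cells and at 103 and 109 CPM in pachytene cells. The unnamed cluster had 62.97 and 66.1 CPM, round cells 21.2 and 24.1 CPM and late cells 8.12 and 6.23 CPM, each below the class before it in both mice. Slc25a4, the carrier of heart and muscle, was at or under 2.86 CPM in all spermatocyte and spermatid classes but the early one. There the mice stood apart, with 15 UMIs (13.7 CPM) in mouse 1 and 6 UMIs (2.48 CPM) in mouse 2. A single cell of mouse 1 held 7 of these UMIs, and without it the level was 7.42 CPM. Sertoli-like cells had 813 CPM of Slc25a4 in mouse 1 and 81.8 CPM in the 1 cell of mouse 2. Leydig-like cells had 300.3 CPM in the 1 cell of mouse 1 and 417 CPM in mouse 2. The order of the 5 germ cell paralogs by mean level was the same in early and in pachytene cells, namely Cox8c, Cox6b2, Cox7b2, Cyct and Slc25a31. In early cells the means over mice were 3059.5 ± 112, 1817 ± 83.99, 797 ± 131, 508 ± 11.8 and 144 ± 33.6 CPM (SD, n = 2). Neighbours in this order did not overlap between the mice in either class.

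**Figure D1:**
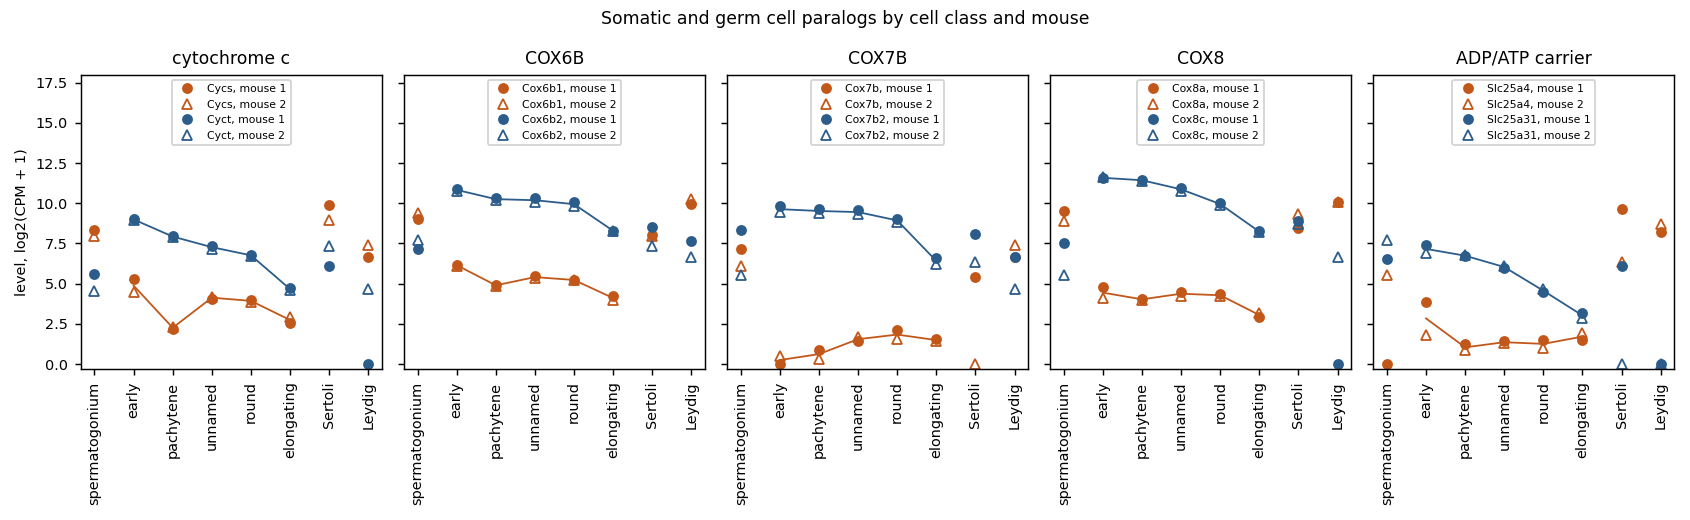
Levels (log2 of CPM + 1) of the somatic and germ cell paralog of each pair by cell class, with 1 point per mouse and a line through the mean of the 2 mice, where elongating marks the late class. The germ cell paralogs lie above the somatic ones in all spermatocyte and spermatid classes, and below them for cytochrome c, COX6B and COX8 in spermatogonium-like cells.

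The 5 germ cell paralogs together took 0.643% of all UMIs of early cells in mouse 1 and 0.622% in mouse 2. The shares were 0.523% and 0.489% in pachytene, 0.278% and 0.241% in round and 0.0749% and 0.0704% in late cells. The 5 somatic paralogs took 0.0149% and 0.0109% in early and 0.00325% and 0.00343% in late cells. Each of these falls exceeded the difference between the mice.

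Counts per cell gave another order of classes. Pachytene cells held the most UMIs, on average 33960 and 34036 against 20595 and 21817 in early cells. Cox8c had 61.4 and 68.5 UMIs per cell in early cells of mouse 1 and mouse 2 and 95.5 and 91.99 in pachytene cells. These are means, and the median total was 19576 UMIs per early and 20843 per pachytene cell. Within the pachytene class the Cox8c counts ran, along the ordering of cells in 20 bins, from 132 and 176 UMIs per cell in bin 3 to 41.1 and 44.2 in bin 5, against 54.8 and 56.3 in bin 1, which held early cells. Cox7b2 was likewise higher per cell in the pachytene class, with 26.9 and 23.1 UMIs against 18.3 and 15.4. Cyct was lower per cell in the later class, at 8.27 and 8.21 UMIs against 10.6 and 10.9. Slc25a31 was higher per cell in the pachytene class in both mice, with 3.49 and 3.71 UMIs against 3.45 and 2.62, though by little in mouse 1. Cox6b2 had means over mice of 41.5 ± 2.72 UMIs per pachytene cell against 38.5 ± 0.21 per early cell (SD, n = 2). The order of the early and the pachytene class thus differed between CPM and the mean per cell for Cox8c, Cox6b2, Cox7b2 and Slc25a31, and not for Cyct. For Cox7b2 the CPM of the mice overlapped between these classes. In late cells, Cox8c was down to 4.71 and 5.12 UMIs per cell and Cyct to 0.395 and 0.404.

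Within a pair, the share of UMIs that belong to the germ cell paralog does not depend on the scaling of a library. Over all 2534 spermatocytes and spermatids, mouse 1 had 4680 UMIs of Cyct and 263 of Cycs, a Cyct share of 94.7%, and mouse 2 had 4980 and 346, a share of 93.5%. Cox6b2 supplied 97.02% and 96.6% of its pair, Cox7b2 99.7% and 99.7%, Cox8c 99.1% and 99.1% and Slc25a31 96.9% and 97.5%. The germ cell paralog was thus the main transcript of all 5 pairs in both mice.

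The share of Cyct was highest in pachytene and lowest in late cells. Cyct took 93.2% (90.9 to 95.1%) in early cells of mouse 1 and 95.9% (94.6 to 96.9%) in mouse 2, where brackets give exact 95% binomial intervals, which cover counting error only. Its share was 98.6% and 98.4% in pachytene cells, above both early values, and 91.1% and 89.4% in the unnamed cluster. Round cells had 87.96% and 88.6%. The lowest values were those of late cells, at 84.4% (78.1 to 89.5%) and 77.3% (70.4 to 83.2%). Every round and late value lay under every spermatocyte value.

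The carriers followed a similar course on fewer molecules. Slc25a31 took 92.4% and 97.98% in early and 98.7% and 99.3% in pachytene cells. In round cells it took 91.9% and 96.1%, which overlapped the early values. In late cells it took 82.1% (69.6 to 91.1%) and 68.5% (54.4 to 80.5%), on 46 of 56 and 37 of 54 UMIs. These shares are of the pair with Slc25a4 and leave out Slc25a5, another somatic carrier. Round cells held 14 and 33 UMIs of Slc25a5 against 8 and 6 of Slc25a4, and late cells 6 and 20 against 10 and 17. With Slc25a5 counted the shares would be lower, and the overlap was not checked for them. The complex IV pairs moved little. Cox6b2 stayed between 94.7% and 97.7% in the 5 spermatocyte and spermatid classes of both mice, and Cox8c between 97.3% and 99.5%. Cox7b2 was lowest in late cells, at 97.99% and 97.8%, and at 99.4% or above elsewhere.

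**Figure D2:**
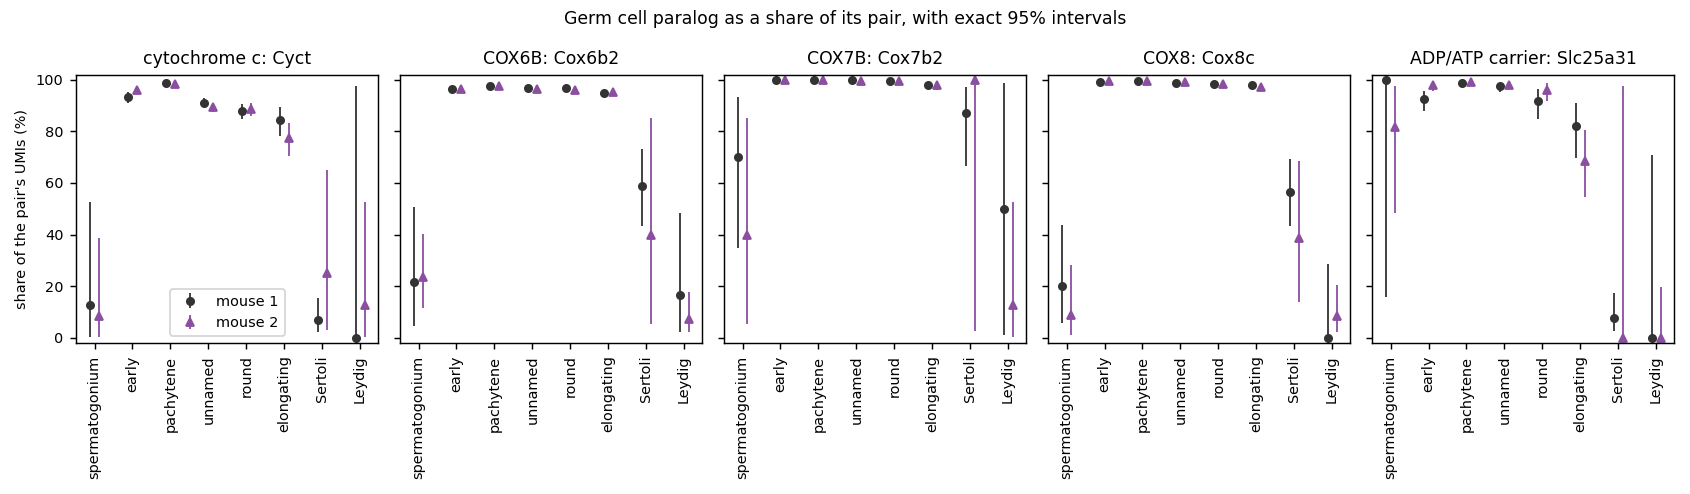
Share of the germ cell paralog in the UMIs of its pair (percent) by cell class, with 1 point per mouse and exact 95% binomial intervals as bars. The shares are near 100% from early cells on, with the lowest values for cytochrome c and the ADP/ATP carrier in late cells.

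Spermatogonium-like cells stood apart, on 6 cells in all. Cyct was 1 of 8 and 1 of 12 cytochrome c UMIs there, Cox6b2 3 of 14 and 9 of 38 of its pair and Cox8c 4 of 20 and 2 of 23. Slc25a31 took 2 of 2 and 9 of 11 carrier UMIs in the same cells, and Cox7b2 7 of 10 and 2 of 5 of its pair. The cytochrome c, COX6B and COX8 pairs were therefore mostly somatic in spermatogonium-like cells of both mice, the carrier pair was not, and the COX7B pair differed between the mice. In the 12 Sertoli-like and Leydig-like cells, germ cell paralogs stood at 59.0 CPM for Cyct, 258 CPM for Cox6b2, 170 CPM for Cox7b2, 317 CPM for Cox8c and 36.9 CPM for Slc25a31, on 8, 35, 23, 43 and 5 UMIs. These are 10.3% to 27.4% of the levels of early cells, and 18.3% (Cox8c) to 58.99% (Slc25a31) of the levels over all cells. The protamine gene Prm1 stood at 4.05% of its highest class level and 17.9% of its level over all cells, and the transition protein gene Tnp1 at 4.04% and 17.4%. In spermatogonium-like cells Cyct (46.7 and 22.8 CPM), Cox6b2 (140.1 and 205 CPM) and Cox8c (187 and 45.5 CPM) were no higher than in these somatic cells. The part of RNA free in the suspension was not tested. Slc25a31 at 93.4 and 205 CPM was above the somatic value in both mice, on 2 and 9 UMIs, and Cox7b2 at 327 and 45.5 CPM in mouse 1 alone, on 7 and 2 UMIs.

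To compare single cells at 1 depth, each cell was thinned to 5000 UMIs, which all 2552 cells reached. A UMI of Cox8c was then found in 100% of early and 99.8% of pachytene cells, and in 71.6% of late cells. For Cyct the shares were 89.6%, 65.97% and 11.3%, and for Slc25a31 46.95%, 42.8% and 4.24%. Before thinning, Cyct was found in 96.3%, 96.01% and 25.7% of these cells and Slc25a31 in 92.1%, 89.9% and 10.7%. In Sertoli-like cells, which should lack these transcripts, 6 of 7 thinned cells held a UMI of Cox8c, 3 of Cyct and 3 of Slc25a31, with a median depth of 12039 UMIs against 19576 in early cells before thinning. For all pairs but the carrier, most thinned early cells held only the germ cell form. This depended on depth, since before thinning 74.4% of early cells held both COX6B paralogs and 25.6% Cox6b2 alone, and 84.8% held Slc25a31 alone. Cyct without Cycs was found in 75.00% of thinned early cells, and both in 14.6%. In pachytene cells both were found in 1.33%, and in round cells in 4.69%. For COX6B, both paralogs were found in 33.5% of early and 13.9% of pachytene cells. Thinned cells with both COX7B paralogs made up 1.60% of the unnamed cluster, the highest share of any spermatocyte or spermatid class. Before thinning, round cells had the highest share (5.36%), against 3.77% in the unnamed cluster. Among the 164 early cells 0 held both after thinning and 1 before it.

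**Figure D3:**
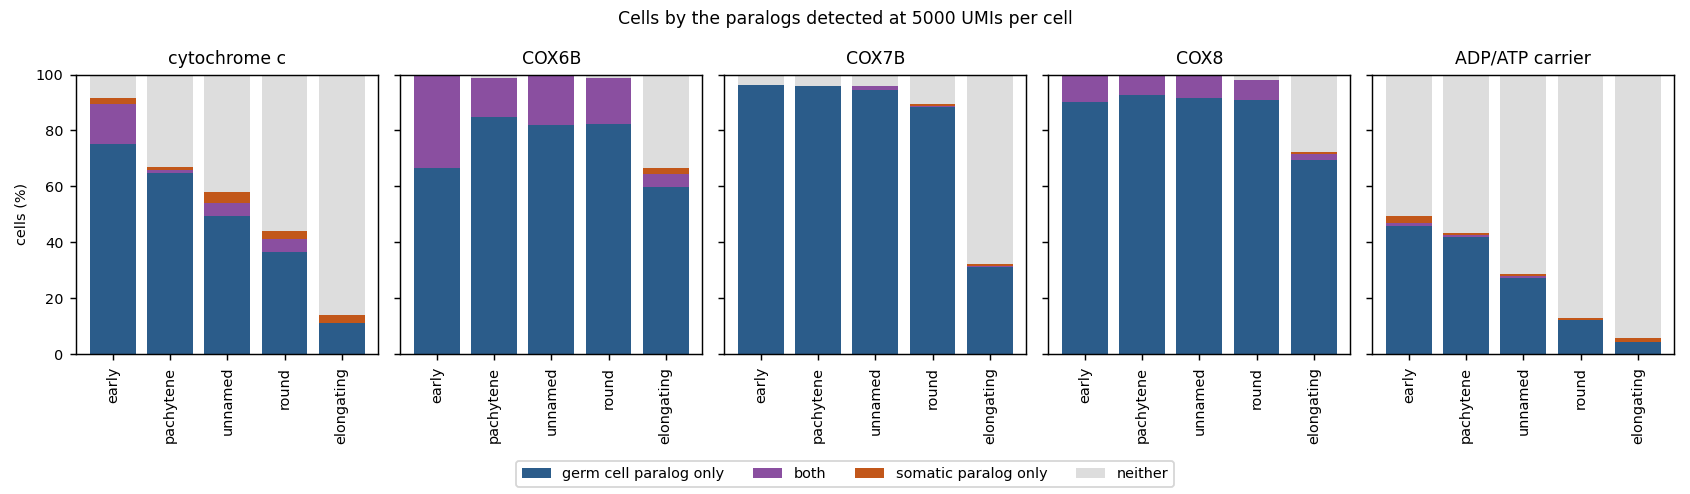
Percent of cells of each class, thinned to 5000 UMIs, with UMIs of both paralogs, of the germ cell paralog alone, of the somatic paralog alone or of neither, for each pair. Cells with the germ cell paralog alone are the main group in the early and pachytene classes for all pairs but the ADP/ATP carrier. In late cells, those with neither paralog prevail for cytochrome c, COX7B and the ADP/ATP carrier.

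The cells were next placed in 20 bins along the path through the cluster centres, from early spermatocytes to the latest spermatids. The path was laid in the order of the classes, and all 5 edges of the shortest tree through the 6 centres joined neighbours on it. In bin 1 Cox8c had 2896 CPM in mouse 1 and 3159 CPM in mouse 2. It was still at 2531 and 2461 CPM in bin 5, at 1597 and 1647 CPM in bin 10 and at 572 and 539.6 CPM in bin 15. Per cell its highest values were in bin 3, with 132 and 176 UMIs. Cyct had its highest level in bin 1, at 538 and 569 CPM, and was at 311 and 338 CPM in bin 2. Cyct thus lost more of its level over the first bins than Cox8c did.

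Cycs took another course. From 45.8 and 28.1 CPM in bin 1 it went to 3.11 and 2.09 CPM in bin 4. In bin 9 it stood at 19.8 and 18.7 CPM, and in bin 19 at 1.08 and 3.21 CPM. Slc25a31 had a second high point. After 179.6 and 141 CPM in bin 1 it stood at 94.2 and 77.99 CPM in bin 2 and at 142 and 153 CPM in bin 5, before it went to 41.2 and 51.02 CPM in bin 10. Cox6b2 held 1159 and 1029 CPM in bin 5 and 1226 and 1040 CPM in bin 12, and then dropped to 170.3 and 136 CPM in bin 17. For each of the 5 pairs, the germ cell paralog already exceeded 50% of the UMIs in bin 1, and did so in 5 of 5 other settings of the ordering. No crossing from the somatic to the germ cell paralog was therefore seen among the ordered cells. The ordering left out the spermatogonium-like cells, and the early class as a whole already held mostly the germ cell paralog of each pair. A crossing before the early class could thus not be seen in any setting. The lowest share of Cyct along the path was 72.8%, in bin 16, and that of Slc25a31 was 58.8%, in bin 19.

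**Figure D4:**
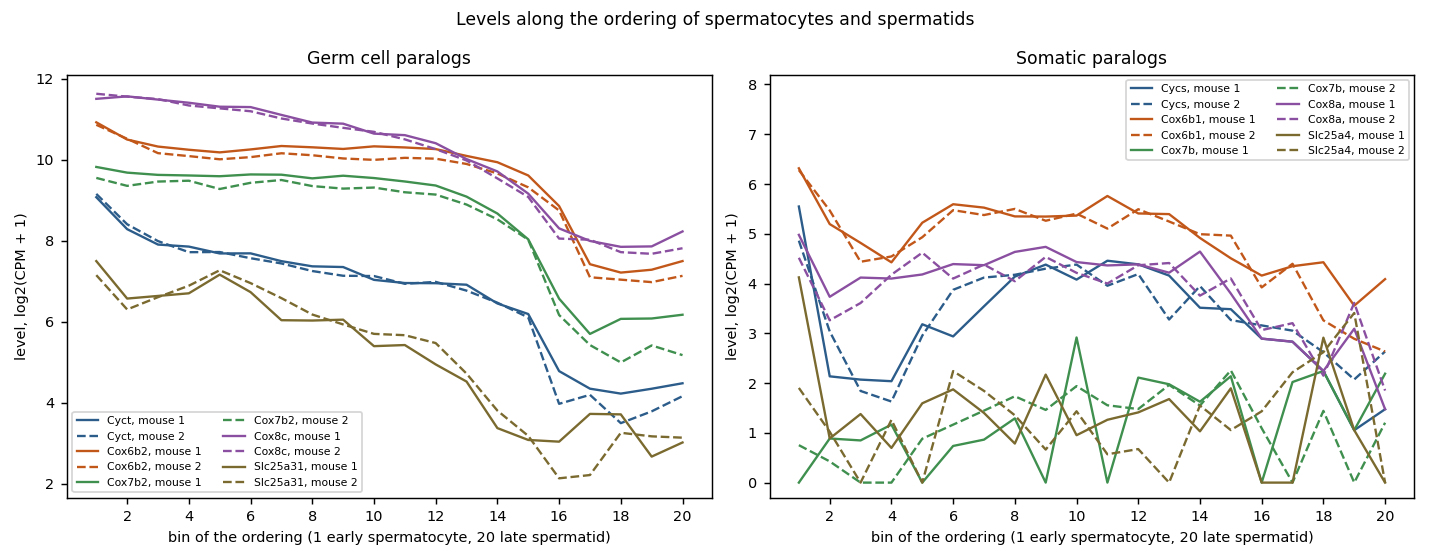
Levels (log2 of CPM + 1) of the 5 germ cell paralogs (left) and the 5 somatic paralogs (right) in 20 bins of the path through the cluster centres, with mouse 1 as solid and mouse 2 as dashed lines. The germ cell paralogs are lower in bins 16 to 20 than in bins 1 to 13, Slc25a31 has a second high point at bin 5, and Cycs dips in bins 2 to 5, is higher in bins 7 to 12 and low again from bin 16.

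A set of 3 steps of differentiation was then tested with edgeR's quasi-likelihood test on UMIs summed per class and mouse, with Benjamini-Hochberg adjustment over 15003 rows. All 10 genes passed the filter on low counts. Fold changes are log2 ratios after TMM scaling, and therefore differ from ratios of CPM. Each SE was derived from the test, as the size of the fold change divided by the square root of the F statistic. From early to pachytene cells, 0 of the 10 genes rose, where 24.7% of all rows tested rose, and 4 of 10 fell, where 23.5% of all rows fell. Cycs fell the most (-2.59 ± 0.28 (SE), adjusted p = 1.62e-07). Slc25a4 (-2.21 ± 0.62 (SE), adjusted p = 0.0055), Cox6b1 (-0.996 ± 0.16 (SE), adjusted p = 3.48e-05) and Cyct (-0.78 ± 0.13 (SE), adjusted p = 4.36e-05) fell as well. Cyct was the only germ cell paralog called in this fit, and the fold changes of the others were -0.28 ± 0.15 (SE), adjusted p = 0.13 for Cox6b2, 0.18 ± 0.16 (SE), adjusted p = 0.36 for Cox7b2, 0.14 ± 0.15 (SE), adjusted p = 0.49 for Cox8c and -0.13 ± 0.15 (SE), adjusted p = 0.51 for Slc25a31. Cox6b2 was called lower in 5 of 15 alternatives, with the mouse as a block (-0.29, adjusted p = 0.044), DESeq2, upper quartile scaling, library totals and thinning, at down to -0.57. The median over the 10 genes was -0.21, against 0.0011 over all rows.

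Some markers of Sertoli cells moved with these falls. The 12 Sertoli markers summed to 136 and 45.4 CPM in early and to 16.6 and 10.2 CPM in pachytene cells, with 3 to 5 of the 12 at 0 in each sum. Most of the early sums was Ctsl, at 63.2 and 31.8 CPM, and Clu, at 52.2 and 7.85 CPM. Of 4 tested, these 2 fell (Ctsl -3.00, Clu -1.92), and Amhr2 (-0.94) and Rhox8 (-0.71) were not called. The 12 spermatogonium markers summed to 62.3 and 45.01 CPM and 20.8 and 20.9 CPM, and 2 of 7 tested fell (Uchl1 and Id4), while the list median was 0.21. The part of such cells in the falls of Cycs, Cox6b1 and Slc25a4 was not tested. Without the early cell that held 7 Slc25a4 UMIs, the fold change of Slc25a4 was -1.60, adjusted p = 0.033.

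From pachytene to round cells, the called somatic and germ cell paralogs moved in opposite directions, with shares called near those of all rows. Of the 10 genes 4 rose, where 36.9% of all rows rose, and all 4 were somatic paralogs. Cox7b (2.33 ± 0.55 (SE), adjusted p = 7.41e-04) and Cycs (2.23 ± 0.26 (SE), adjusted p = 1.34e-07) rose the most, followed by Cox6b1 (0.66 ± 0.16 (SE), adjusted p = 7.44e-04) and Cox8a (0.58 ± 0.20 (SE), adjusted p = 0.014). The call of Cox6b1 was lost when the unnamed cluster was counted as pachytene (adjusted p = 0.080), and that of Cox8a there and under 3 other settings. Another 3 of the 10 genes fell, where 37.2% of all rows fell, and all were germ cell paralogs, namely Slc25a31 (-1.90 ± 0.16 (SE), adjusted p = 1.38e-09), Cox8c (-1.16 ± 0.15 (SE), adjusted p = 6.53e-07) and Cyct (-0.86 ± 0.13 (SE), adjusted p = 6.62e-06). Cox6b2 (0.01 ± 0.15 (SE), adjusted p = 0.96) and Cox7b2 (-0.27 ± 0.15 (SE), adjusted p = 0.12) were not called. Cox7b2 was called lower with the mouse as a block (-0.27, adjusted p = 0.032), upper quartile scaling and library totals alone. Cox6b2 was called higher after thinning and lower with library totals alone. Slc25a4 was not called either (0.60 ± 0.66 (SE), adjusted p = 0.42). The median was 0.66 over the 5 somatic and -0.86 over the 5 germ cell paralogs, against -0.10 over all rows. Sertoli markers summed to 22.6 and 12.1 CPM in round cells, with 0 of 4 tested called. Spermatogonium markers summed to 57.8 and 53.2 CPM, with 4 of 7 tested called higher and 1 (Id4) lower. Most of this sum was Esx1, at 29.6 and 33.2 CPM against 1.73 and 0.402 CPM in pachytene cells, and Kit, at 13.5 and 9.08 against 0.384 and 0.134 CPM. The sum thus rests mainly on these genes. Dmrt1 (1.90, adjusted p = 0.011) and Nanos3 (1.26, adjusted p = 0.015) were called higher as well, and the list median was 1.26. The part of Sertoli cells and spermatogonia in the rises was not tested.

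From round to late cells, all 5 germ cell paralogs fell. These 5 of 10 genes compare with 25.9% of all rows that fell. Cox7b2 (-1.66 ± 0.16 (SE), adjusted p = 2.46e-08) and Cyct (-1.28 ± 0.15 (SE), adjusted p = 2.46e-07) fell the most, followed by Cox8c (-0.86 ± 0.15 (SE), adjusted p = 5.95e-05), Slc25a31 (-0.80 ± 0.21 (SE), adjusted p = 0.0023) and Cox6b2 (-0.80 ± 0.15 (SE), adjusted p = 1.26e-04). Of the 10 genes 1 rose, where 27.0% of all rows rose. This was Slc25a4 (1.62 ± 0.62 (SE), adjusted p = 0.033), on 8 and 6 UMIs against 10 and 17. Its CPM overlapped between the classes, at 1.87 and 0.990 CPM against 1.77 and 2.86 CPM. The fold changes of Cycs (-0.44 ± 0.26 (SE), adjusted p = 0.17), Cox6b1 (-0.31 ± 0.17 (SE), adjusted p = 0.13), Cox8a (-0.46 ± 0.23 (SE), adjusted p = 0.097) and Cox7b (0.37 ± 0.50 (SE), adjusted p = 0.56) did not pass. Cycs, Cox6b1 and Cox8a were called lower with library totals alone (-1.30, adjusted p = 4.98e-04, -1.17, adjusted p = 5.40e-06 and -1.32, adjusted p = 1.01e-04) and with the unnamed cluster counted as round, and Cox6b1 and Cox8a with upper quartile scaling too, so that a difference between somatic and germ cell paralogs at this step depended on the setting. Library totals shifted the median of all rows to -0.88. The median over the 10 genes was -0.63, against -0.03 over all rows.

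The rise of Slc25a4 moved with Sertoli markers and with 1 cluster. Sertoli markers summed to 22.6 and 12.1 CPM in round and 31.2 and 27.6 CPM in late cells, and all 4 markers tested rose, by 1.51 to 2.05 on the log2 scale, Clu by 1.55. With library totals alone 0 of these 4 passed. Of the 9 Leydig markers, 3 were tested and 2 rose, while 0 were called in the other steps, and 0 rose with library totals or upper quartile scaling, and the list summed to 25.9 and 12.9 CPM and 34.3 and 15.99 CPM. Sertoli-like cells held Slc25a4 at 813 CPM in mouse 1 and at 81.8 CPM in the 1 cell of mouse 2. Their part in the rise was not tested. Without the larger of both late clusters, Slc25a4 had a fold change of 0.35, adjusted p = 0.79, and the call was also lost with DESeq2, upper quartile scaling and library totals.

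**Figure D5:**
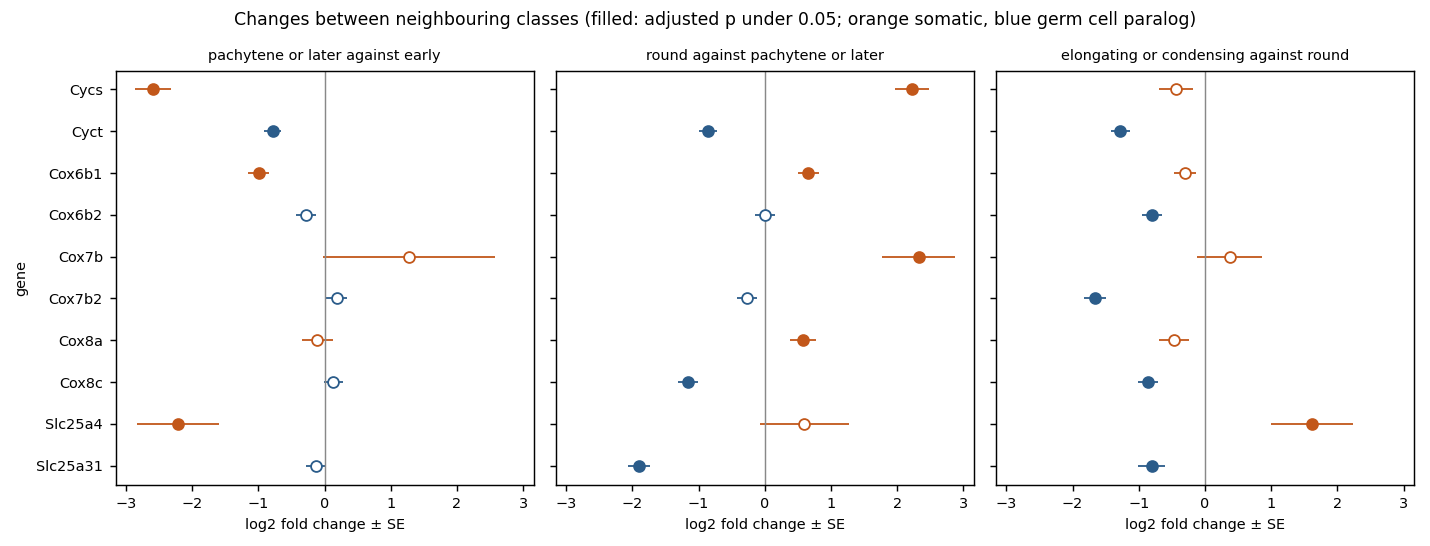
Log2 fold changes of the 10 genes in the 3 comparisons with standard errors derived from the F statistic as bars, filled where the adjusted p is under 0.05, with a line at 0. The called somatic and germ cell paralogs lie on opposite sides of 0 in round against pachytene cells, and all 5 germ cell paralogs lie below 0 in late against round cells.

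The late class consists of 2 clusters, which differ in depth and in these transcripts. The smaller had 87 and 108 cells with a median of 23893 UMIs, and the larger 283 and 229 cells with 11718. Cox6b2 had 576 and 503 CPM in the smaller and 160.3 and 135 CPM in the larger. Cox7b2 had 149.8 and 117 CPM and 62.4 and 38.01 CPM, and Cyct 37.6 and 31.3 CPM and 18.95 and 15.3 CPM. Cox8c differed less, at 412 and 359.9 CPM and 247 and 228 CPM. In all 4 genes the mice did not overlap between the clusters. Slc25a31 did not overlap either but went the other way in CPM, at 5.30 and 6.05 CPM in the smaller and 9.75 and 6.39 CPM in the larger cluster. These values rest on 46 and 37 UMIs over both clusters, and those of mouse 2 lie close together. Per cell it was lower in the larger cluster, with means over mice of 0.106 ± 0.0257 against 0.142 ± 0.0219 UMIs (SD, n = 2). Its direction thus depended on the measure. The share of all genes without overlap was not computed, so that these are values of single genes. Against round cells, the fold change of Slc25a31 was -1.49, adjusted p = 4.98e-05 without the larger and -0.36, adjusted p = 0.19 without the smaller cluster, so that its call rested on the smaller one. The clusters were made from the same cells, and no test was run between them.

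For each of the 10 genes, the 3 genes of most similar course were sought among 7888 genes with at least 500 UMIs, by Pearson's r of log2(CPM + 10) over 40 points, the 20 bins of each mouse. The points share libraries and depth, and no p is given. Genes of the respiratory chain led for 2 of the members. Cox8c was most like Sdha (0.99), a subunit of complex II, with Rsrc1 and Atp5d, a subunit of the ATP synthase, next. Cox6b2 was most like Cox5b (0.99), another nuclear subunit of complex IV, then Bbip1 and Tbca. Cox7b2 was most like Nop10 (0.99), then Tuba3a and Phtf1, Cyct like Wbp4 (0.99), then the copper chaperone Atox1 and the chaperonin subunit Cct6a, and Slc25a31 like the endoplasmic reticulum chaperone Hsp90b1 (0.98), then Emc2 and Nol8. The coefficients of the somatic paralogs were lower. Cox6b1 was most like Rab14 (0.93), then Tmed2 and Ift88. Cox8a was most like Map10 (0.90), then Hpf1 and Snrpg. Cycs was most like the mitochondrial chaperonin gene Hspe1 (0.89), then Fam204a and Rnmt. Slc25a4 was most like Clu (0.67) and Cst12 (0.64), both leading genes of the Sertoli-like cluster, and then Ctdspl2. For Cox7b, with 104 UMIs in all, no coefficient exceeded 0.60 (Hepacam, then Rasal1 and Gm15873). The names depend on the ordering, since other orderings tried gave other names.

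Among the members themselves, Cyct and Cox8c had the most similar course (r = 0.98 over the same 40 points), followed by Cox6b2 and Cox7b2 (0.97) and Cox7b2 and Cox8c (0.96). Within the pairs r was 0.46 for cytochrome c, 0.83 for COX6B, -0.09 for COX7B, 0.75 for COX8 and 0.07 for the ADP/ATP carriers. Each germ cell paralog was closer to the other germ cell paralogs than to its somatic partner, except that r of Cox6b2 with Slc25a31 (0.77) was below that of the COX6B pair. The somatic partners have far fewer UMIs, with 104 for Cox7b and 186 for Slc25a4 in all cells. Low counts lower r, and their part in this difference was not tested.

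The other complex IV subunits were less uniform. Of 13 listed, 9 were tested. From early to pachytene cells 2 rose and 4 fell, from Cox5a (0.49 ± 0.14, adjusted p = 0.007) to Ndufa4 (-3.38 ± 0.28, adjusted p = 5.80e-09). In the step to round cells 0 rose and 3 fell, from Cox7a2 (-0.35 ± 0.15, adjusted p = 0.039) to Cox4i1 (-1.15 ± 0.14, adjusted p = 3.89e-07). In the step to late cells 2 rose and 5 fell, from Cox7a2l (0.94 ± 0.16, adjusted p = 5.56e-05) to Cox6c (-1.37 ± 0.18, adjusted p = 1.49e-06). The list medians were -0.22, -0.07 and -0.58, against 0.0011, -0.10 and -0.03 over all rows. With library totals alone, 0 rose in each step and 6, 5 and 6 fell, and the second median was 0.02 with DESeq2. The amount of Cox8c relative to Cox4i1, a core nuclear subunit, was 1.63 and 1.69 UMIs per UMI in early, 2.07 and 2.18 in round and 1.32 and 1.27 in late cells. Relative to Cox5a it was 3.34 and 3.51 in early, 1.27 and 1.24 in round and 1.15 and 0.940 in late cells. The direction from early to round cells thus depended on the subunit it was set against. Ndufa4 went from 78.8 and 44.2 CPM to 4.70 and 4.43 CPM between the spermatocyte classes, a fall like that of Cycs. Unlike Cycs, Ndufa4 was not called higher in round cells (0.53 ± 0.33, adjusted p = 0.16), at 6.99 and 3.96 CPM. Cox8b, another paralog of COX8, had 0 UMIs in all 2552 cells, as had Cox4i2. Cox6a2 had 9 UMIs and Cox7a1 40, which for Cox7a1 stood at 0 and 442 CPM in Leydig-like cells.

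The 4 mitochondrially encoded genes had lower fold changes at the step to round cells than any called nuclear subunit of complex IV. Of mt-Co1, mt-Co2, mt-Co3 and mt-Cytb, 0 rose and 3 fell from early to pachytene cells, from mt-Co3 (-0.90 ± 0.28, adjusted p = 0.01) to mt-Cytb (-2.35 ± 0.15, adjusted p = 2.65e-10). All 4 fell in round cells, from mt-Cytb (-2.26 ± 0.16, adjusted p = 6.07e-11) to mt-Co2 (-3.31 ± 0.53, adjusted p = 1.14e-05). In late cells 3 rose, from mt-Co1 (0.82 ± 0.23, adjusted p = 0.0051) to mt-Co3 (1.82 ± 0.52, adjusted p = 0.0057), but only 1 did with library totals alone, where mt-Co1 turned to -0.04. In round cells mt-Co2 stood at 0.233 and 0.660 CPM and mt-Co3 at 0.699 and 1.16 CPM, so that their fold changes rest on few molecules. The level of mt-Co1 was 352 and 256 CPM in pachytene and 31.01 and 26.6 CPM in round cells. Sertoli-like cells held 6808 and 6381 CPM.

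Complex III, which reduces cytochrome c, had 9 of 9 listed genes tested. In the 3 steps 1 rose and 4 fell, 1 rose and 6 fell, and 1 rose and 3 fell. The extremes were Uqcrc1 (0.36 ± 0.14, adjusted p = 0.035) and Cyc1 (-2.78 ± 0.17, adjusted p = 7.84e-11) in the first step, Uqcrfs1 (0.74 ± 0.14, adjusted p = 5.27e-05) and Uqcrc2 (-2.29 ± 0.15, adjusted p = 1.29e-11) in the second, and Uqcrq (0.43 ± 0.16, adjusted p = 0.023) and Uqcrfs1 (-1.41 ± 0.14, adjusted p = 3.64e-08) in the third. The list medians were -0.35, -0.49 and -0.12. With library totals alone 0 rose and 5 fell, 1 rose and 8 fell, and 0 rose and 9 fell, with a median of -0.99 in the last step. Cyc1, cytochrome c1, hands electrons to cytochrome c, and it fell together with Cycs and Cyct in the first step.

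The other carriers and porins comprised 5 genes, of which 4 were tested and Vdac1 did not pass the filter. Slc25a5, the other somatic ADP/ATP carrier, was scarce in germ cells too. It had 3.66 and 2.06 CPM in early and 1.82 and 1.74 CPM in pachytene cells and 3.26 and 5.45 CPM in round cells, against 482 and 899.9 CPM in Sertoli-like and 801 and 712 CPM in Leydig-like cells. Early cells had 45.8 and 58.2 UMIs of Slc25a31 per UMI of Slc25a5, and late cells 7.67 and 1.85, on 4 and 5 UMIs of Slc25a5 in early and 6 and 20 in late cells, so that these ratios are imprecise. In the first step 2 of the 4 rose, from Vdac3 (0.96 ± 0.14, adjusted p = 1.33e-05) to Vdac2 (1.23 ± 0.15, adjusted p = 9.62e-07), and 0 fell. In the second 2 rose and 2 fell, from Slc25a5 (1.63 ± 0.43, adjusted p = 0.0019) to Vdac2 (-0.45 ± 0.15, adjusted p = 0.0091). In the third 0 rose and 3 fell, from Slc25a3 (-0.50 ± 0.14, adjusted p = 0.0041), the phosphate carrier, to Vdac2 (-1.33 ± 0.15, adjusted p = 2.25e-07). The list medians were 0.36, 0.59 and -0.60, the first of which turned to -0.45 with DESeq2, where Vdac1 was included.

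Genes for the assembly of complex IV and of cytochrome c, 22 in the list and 19 tested, split in both directions. In the first step 4 rose and 7 fell, from Cox11 (1.22 ± 0.16, adjusted p = 2.00e-06) to Sco1 (-2.43 ± 0.74, adjusted p = 0.01), which had 26 UMIs in all cells. In the second 2 rose and 10 fell, from Cmc1 (2.47 ± 0.21, adjusted p = 1.27e-09) to Cox10 (-3.57 ± 0.27, adjusted p = 1.59e-10), an enzyme of the haem A pathway. In the third 3 rose and 5 fell, from Coa5 (2.19 ± 0.19, adjusted p = 5.22e-09) to the copper chaperone Cox17 (-1.95 ± 0.19, adjusted p = 3.28e-08). The list medians were -0.20, -0.73 and -0.15. With library totals alone 1 rose and 13 fell in the last step. Of the apoptosome genes, which act downstream of released cytochrome c, Apaf1 had 13 UMIs in all cells and was not tested, and Casp9 had 62 UMIs and was tested. Casp9 was not called in any step, with fold changes of -0.43, -1.23 and 1.26, and it fell in the second step with library totals alone.

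Other enzymes with a testis paralog differed in timing. Ldhc, Pgk2, Pdha2 and Gapdhs took 88.8%, 98.8%, 99.96% and 98.2% of their pairs over spermatocytes and spermatids. Gapdhs was at 80.00% and 67.9% in early and 99.5% and 99.6% in late cells, the reverse of the course of Cyct. Of the 8 genes 7 were tested, and in the last step 5 rose and 0 fell, with the extremes Ldhc (0.50 ± 0.18, adjusted p = 0.023) and Gapdhs (2.50 ± 0.18, adjusted p = 1.78e-10). Those that rose were the testis paralogs Ldhc, Pgk2 and Gapdhs and the somatic paralogs Pgk1 and Gapdh. The testis paralog Pdha2 was not called (-0.09 ± 0.16, adjusted p = 0.66). All 5 germ cell paralogs of the respiratory chain fell in this step. With library totals alone 2 of the 7 rose and 3 fell. In the first step 3 rose and 2 fell, from Pgk2 (2.10 ± 0.17, adjusted p = 5.76e-09) to Gapdh (-1.48 ± 0.25, adjusted p = 4.21e-05), and in the second 4 rose and 1 fell, from Gapdhs (3.30 ± 0.19, adjusted p = 1.27e-12) to Ldha (-0.57 ± 0.16, adjusted p = 0.0027).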

How the data were processed

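Single-cell RNA of whole testis from 2 wild-type mice was analysed. Per the labels and the study's methods, the authors demultiplexed reads with Cell Ranger 2.0.0 and bcl2fastq 2.17.1.14, aligned and counted them with Cell Ranger against repeat-masked GRCm38 with repeat sequences added, and combined the mice after downsampling of reads to equal mean depth. The deposited values are whole UMI counts per row and cell (51868 rows, 2552 cells), without further normalization. Masking and downsampling can lower counts, and whether masking takes reads from one paralog of a pair more than from the other was not tested. The other deposited files held only gene names and cell barcodes. Cells held 7114 to 154431 UMIs. Sums per class and mouse ranged from 9991 to 10425603 UMIs, so that low levels in rare classes are imprecise. Intervals are exact (Clopper-Pearson, 95%) and cover counting error only, and a count of 0 allows up to 3 counts.

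Counts were scaled per cell, log-transformed, and clustered by K-means (K = 9, seed 42, 10 principal components) over 27719 rows, without 74 rows for the members and listed genes. A cluster was named where at least 3 markers of the best scoring class reached 1.5 times their level in all cells. These classes were rebuilt and may differ from those of the study. Doublets (25 cells called) were kept, except in 1 alternative. UMIs were summed per class and mouse and tested with edgeR's quasi-likelihood test (TMM, filterByExpr), all 5 spermatocyte and spermatid classes sharing 1 estimate of the spread. Sums of the same mouse come from 1 animal and so are paired. Their deviations correlated by 0.028 to 0.203 over 15003 genes, and the block for the mouse was an alternative. The mice are separate animals with 1 library each.

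The ordering for the profiles was chosen after several orderings had been compared by how well their bins separated the classes. Diffusion pseudotime (15 neighbours) gave the bin in which a paralog first exceeds 50%, which the path also gave. Named genes were the members, the highest and lowest fold change among called genes of each list and comparison, other isoforms, comparison pairs and the 3 genes of most similar course. The members, lists and tests were chosen with earlier results of these data known. The marker sums of somatic cells and the alternatives on single clusters and on the cell rich in Slc25a4 were added after values had been seen. So were the ratios of Cox8c to Cox4i1 and to Cox5a. The test was tried on simulated counts in which few genes changed, as many higher as lower. The real classes differ in far more rows, so that the simulation does not check the scaling between them.

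Alternatives were DESeq2, upper quartile scaling, library totals alone, no filter, the mouse as a block, other clustering inputs, K = 10, no doublets, thinning to 5000 UMIs, other places for the unnamed cluster, each late cluster left out, and each mouse left out. Calculations used edgeR 4.0.16 and DESeq2 1.42.0 in R 4.3.3, BLAST+ 2.17.0, and Python 3.11.15 with scanpy 1.11.5, scikit-learn 1.9.0, pandas 2.3.3, scipy 1.17.1, matplotlib 3.10.9 and numpy 2.4.6. Gene positions came from the GENCODE annotation (vM21) of GRCm38 and promoters from RefSeq. A listed gene is not reported here.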

Additional observations from a re-analysis of the deposited data

How the results depend on the processing

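Of 17 fold changes called among the 10 genes, 13 were called in the same direction in every alternative fit, with the exceptions Cox6b1 and Cox8a in round against pachytene cells and Slc25a4 and Slc25a31 in late against round cells. The number of members called stayed within 1.5 times in every alternative, at 4 to 6, 5 to 8 and 4 to 9 in the 3 steps. Slc25a4 in the last step had 1.68 with DESeq2, 1.51 with upper quartile scaling, 0.76 with library totals and 0.35 without the larger late cluster. Slc25a31 had -0.63 after thinning and -0.36 without the smaller late cluster. With the mouse as a block, Cox6b2 (-0.29) and Cox7b2 (-0.27) gained calls and no call among the members was lost. Cox6b2 in the first step gained a call in 5 of 15 alternatives, and in the last step Cycs did in 2, Cox6b1 in 4 and Cox8a in 3 of 16. In the second step Cox7b2 did in 3 of 16, and Cox6b2 after thinning and with library totals, in opposite directions. Leaving out a mouse leaves 1 sum per class and no test, and the lowest and highest fold changes among the members were -3.00 (Cycs, first step, without mouse 2) and 3.24 (Cox7b, second step, without mouse 1). Directions turned only for fold changes that were not called, among them, without 1 mouse, Cox8a, Cox8c and Slc25a31 in the first and Cox6b2 in the second step. Under other settings, those of the first step were Cox7b2 (-0.040 with DESeq2, -0.12 with library totals), Cox8a (0.017 after thinning, 0.083 with the unnamed cluster as pachytene) and Cox8c (-0.079 with DESeq2, -0.15 with library totals, -0.057 with the unnamed cluster as pachytene, -0.0039 with upper quartile scaling). In the second step Cox6b2 had -0.038 with classes from 2000 genes, -0.0026 with K = 10, -0.31 with library totals, -0.00012 without repeat rows and -0.28 with upper quartile scaling. In the last step Cox7b had -0.48 with library totals. Shares of Cyct, Cox6b2, Cox7b2, Cox8c and Slc25a31 over spermatocytes and spermatids were 92.3%, 96.5%, 99.6%, 99.1% and 95.5% after thinning. As means of shares per cell, those of Cox6b2, Cox7b2, Cox8c and Slc25a31 were 96.5%, 99.7%, 98.7% and 98.2%. The first bin over 50% was 1 in all 25 alternatives, which left out spermatogonium-like cells and began in a class already over 50% for each pair. The cause of these shifts was not tested.

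Scaling mattered for all rows. TMM gave 3708 higher and 3527 lower, 5543 and 5584, and 4052 and 3887 in the 3 steps. Library totals alone gave 2878 and 4581, 5026 and 6732, and 2177 and 7498, with medians of -0.24, -0.42 and -0.88. Upper quartile scaling shifted the second and the last median to -0.39 and -0.13, and DESeq2 gave 6115 higher and 3998 lower in the second step. Thinning gave 2639 higher and 2176 lower in the first and 3800 and 3285 in the second step. The 2000 most variable genes gave no early spermatocyte-like class, and thinning left Cox7b and Slc25a4 under the filter, so that these have no value there. Spermatogonium-like, Sertoli-like and Leydig-like levels rest on few cells, and Cox7b and Slc25a4 on few UMIs in germ cells.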
